A study of Mus musculus with 18 samples.

Results

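The nuclear-encoded subunits of the mitochondrial respiratory chain were followed through 18 mouse RNA sequencing libraries. Members were chosen by name alone, as genes whose symbol begins with Nduf and a letter and number, with Uqcr, with Cox and a number from 4 to 8, or with Atp5, together with Sdha, Sdhb, Sdhc and Sdhd, and with no symbol that marks a pseudogene. This gave 89 Ensembl genes of the 55401 in the endothelial table and 83 symbols of the 22612 in the EO771 table. By complex, in the endothelial table, 38 belonged to complex I, 4 to complex II, 8 to complex III, 21 to complex IV and 18 to complex V. Ndufa4 and its paralogue Ndufa4l2 were counted with complex IV. The rule also kept 4 genes that the annotation calls processed pseudogenes (Cox6c2, Ndufa11b, Ndufb4c and Ndufs6b), and it missed Cyc1, Ndufab1 and Cycs, which carry other names.

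RNA was taken from 12 sorted endothelial samples and 6 cultures, 3 libraries in each of 6 groups. Blood vessel endothelial cells (BECs) came from the mammary fat pad of female wild-type C57BL/6 mice (BEC normal) or from EO771 tumours grown in that fat pad (BEC tumour), and high endothelial cells (HECs), which line the venules through which lymphocytes enter lymph nodes, came from inguinal nodes of mice without (HEC normal) or with such tumours (HEC tumour). Endothelial cells were sorted as CD45- cells with high CD31, and HECs also by the addressin PNAd. EO771 cells, a mouse mammary carcinoma line, were given vehicle, which was DMSO in saline, or 12-HETE, the lipid that ALOX12 makes from arachidonic acid. The source tissue of HEC tumour is given as lymph node metastases, so endothelial type, organ and the presence of tumour cells around the vessels cannot be told apart in these groups. The labels give no age, and the methods give 1 age range in weeks for the mice of the study in general, not for these samples. Legends of the study describe the replicates of both data sets as independent experiments, but the labels tie no library to an animal or a culture, so p-values measure the spread between these libraries.

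The respiratory chain passes electrons from NADH (complex I) and succinate (complex II) through ubiquinone, complex III and cytochrome c to oxygen at complex IV, and the proton gradient it builds drives ATP synthase, complex V. Most of its subunits are encoded in the nucleus and imported, while a small core is made from mitochondrial DNA, so both genomes must be expressed for the complexes to form. Endothelial cells are known to draw much of their ATP from glycolysis, and their mitochondria are known for roles in biosynthesis and signalling as well.

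Promoter sequence is shown for some of the members that the results turn on, because shared promoter elements are known for this gene set. RefSeq windows of GRCm38.p6, from 250 bases before to 50 bases after each start, were found for 66 member genes, in 71 windows. The core of the motif of nuclear respiratory factor 1, a transcription factor known to act on many such genes, was searched as CGCANGCG on both strands, and 28 windows (39.4%) held it, against 8.21% of all 32851 windows and 11.1% of the 21263 of protein-coding genes. The ETS motif CCGGAAGT, which GABPA recognises, was in 5 windows (7.04%), against 3.89% of all windows and 5.1% of those of protein-coding genes. The YY1 motif AAGATGGC was in 9 (12.7%), against 2.75% of all windows and 3.05% of those of protein-coding genes. No match overlapped another match in a member window. A match is a string of letters and not a measured binding site. Stretches of 30 bases are given 5′ to 3′ on the strand of the gene, here the minus strand for each, with the match in capitals. Sdha, the flavoprotein of succinate dehydrogenase, held the NRF1 letters 3 times, and its lines give 97, 54 and 9 bases from the match to the RefSeq start.
Sdha, chr13:74350319-74350348: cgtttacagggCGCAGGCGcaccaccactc
Sdha, chr13:74350276-74350305: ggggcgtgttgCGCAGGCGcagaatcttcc
Sdha, chr13:74350241-74350270: cgacacccgcgcgactcggtgCGCAAGCGc
Sdhd, chr9:50603909-50603938: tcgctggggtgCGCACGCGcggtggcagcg
Cox6a1, chr5:115349101-115349130: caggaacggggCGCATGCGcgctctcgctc
Ndufb10, chr17:24724431-24724460: gctgcccactaCGCAGGCGcagctgtcacc
Atp5k, chr5:108434430-108434459: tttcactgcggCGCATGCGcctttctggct
Uqcrh, chr4:116075071-116075100: actacgaggagtatgccgcACTTCCGGcca

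The line for Uqcrh, the hinge subunit of complex III, holds the ETS letters on the opposite strand, and the others hold NRF1 letters. Cox6a1 also held the NRF1 letters 116 bases before its start, in a stretch not given here. The Ensembl gene models of Sdha, Cox6a1, Ndufb10, Atp5k and Uqcrh begin further upstream than the RefSeq starts. The stretches of Ndufb10 and Atp5k and the latter pair of Sdha therefore lie wholly or partly inside those models. So does the last base of the Uqcrh stretch. The members are short genes spread over 19 chromosomes, with a median exonic length of 1465 bases against 3504 for protein-coding genes and a median GC content of 51.3% against 49.1%. Exons of 30 members overlap those of another gene, and since the sources do not say whether reads were counted by strand, values of those members are uncertain.

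Levels are DESeq2 normalised counts, that is counts divided by a size factor for each library, and the 2 tables were normalised separately. The members were among the abundant transcripts of every group. Atp5b, the catalytic beta subunit of ATP synthase, had the highest mean, 97856 in the endothelial table and 42102 in EO771 cells, followed by Atp5a1, the alpha subunit, at 41876 and 17860.3. Next came Cox8a, Atp5c1 and Atp5g3 in endothelium and Cox4i1, Atp5g3 and Cox6a1 in EO771 cells. Levels per kilobase allow only a rough comparison between genes, since the length used joins all annotated exons and can exceed the expressed transcript. Per kilobase of exon, the highest endothelial levels were those of Cox8a at 32262, Atp5b at 23096 and Cox6a1 at 23091, and the same 3 genes led in EO771 cells. Among members that are not restricted to certain tissues, levels per kilobase in endothelium spanned 34.6-fold within complex I (35 genes, lowest Ndufb2), 13.6-fold within complex IV (12 genes), 102.9-fold within complex V (17 genes, lowest Atp5s), 3.56-fold within complex III (8 genes) and 3.1-fold within complex II (4 genes). Ndufb2 was given 5628 bases of exon, some shared with other genes, so the span within complex I depends on that length.

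Isoforms of complex IV that are known from muscle, testis, lung or hypoxic cells made up a very small part of each family. Over the 8 of them (Cox4i2, Cox6a2, Cox6b2, Cox7a1, Cox7b2, Cox8b, Cox8c and Ndufa4l2), the highest share of a family's level per kilobase in any library was 1.43%, for Cox7b2 in endothelium, and 1.75%, for Cox7a1 in EO771 cells. Cox8c was listed at 0 in all 12 endothelial libraries, and Cox8b reached 3.38 normalised counts in 1 of them. After the filter on low values (a mean of at least 10), 85 of 89 endothelial members and 76 of 83 EO771 members were tested. Those left out were Cox8b, Cox8c, Ndufa11b and an additional Ensembl gene named Atp5o in endothelium, and the 8 isoforms above except Cox7a1 in EO771 cells.

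Library totals lay between 56410964 and 79357993 in endothelium and between 17294591 and 18624179 in EO771 cells. Low endothelial values are spaced by about 3.74, so 1 unit is not 1 fragment, and division by each library's spacing leaves 15144000 to 21162000. The 8 endothelial markers summed to between 162200 and 213900 normalised counts in every endothelial group. The high endothelial markers Glycam1, Chst4 and Fut7 were present in HECs, while Ccl21a was at 0 there, and the 4 together reached at most 67.1 in BECs. Chst4 was 4.07 in HEC normal replicate 2 against 20210 in the highest library of its group, and Fut7 was 14260 in HEC tumour replicate 3 against 66480. Counts of members with and without these libraries are given below.

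Summed over its members, complex II kept all 4 endothelial groups apart. It was highest in BEC normal, at 47244, 53028 and 51528 normalised counts, followed by BEC tumour at 40019, 41206 and 43331. It stood lower in HECs, at 33061, 33056 and 33046 without tumour and 28628, 28464 and 29528 with tumour, and no 2 of the 4 groups overlapped. The sum of all members was highest in BEC normal (829126 ± 67019), followed by HEC normal (746516 ± 14782) and BEC tumour (686164 ± 48221), with HEC tumour lowest (613420 ± 5982), each as mean ± SD of 3 libraries. BEC normal and HEC normal overlapped, as did BEC tumour and HEC normal. BEC normal was the group with the highest mean for 49 of the 85 members tested and HEC normal for 30, while HEC tumour was the lowest for 43 and BEC tumour for 24. This order was not counted over all genes, so whether it is particular to the members is not known.

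**Figure D1:**
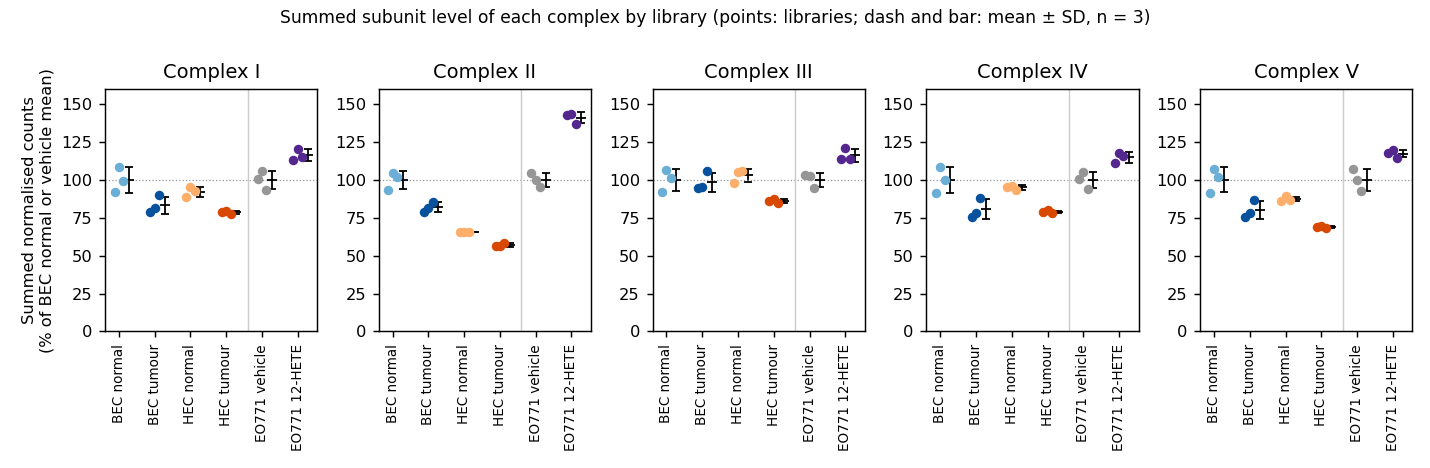
Summed normalised counts of the members of each complex by library, as a percentage of the mean of BEC normal (endothelial groups) or of vehicle (EO771 groups). Points are libraries and bars are mean ± SD (n = 3). Complex II falls stepwise from BEC normal to HEC tumour, and every complex is higher with 12-HETE than with vehicle.

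The first question was how HECs and BECs of mice without tumours differ. Normal HECs carried less of complex II than normal BECs, and the other complexes were mixed, with some subunits higher and others lower. All 4 Sdh subunits were lower in HECs. Ndufs1 and Ndufa10 of complex I and the alpha subunit of ATP synthase, Atp5a1, were lower as well, while Atp5e, Cox8a, Ndufa5 and Uqcrh were higher. A member counts as changed here when its DESeq2 Wald test has an adjusted p under 0.05, with Benjamini-Hochberg adjustment over all genes tested.

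Of 85 members, 17 were higher in HECs (20.0%) and 34 lower (40.0%), where 31.4% of all 18511 genes tested were higher and 31.9% lower. Among genes with a mean of at least 1000, 33.9% were higher and 38.2% lower, so the share of lower members was near that of abundant genes. The median log2 fold change of the members was -0.14, against -0.05 for those abundant genes. It moved to -0.04 without BEC normal replicate 2 and to -0.24 with a trend with length and GC content subtracted. With a fold over 2 required as well, 1 member was higher (17.1% of all genes) and 4 were lower (15.1% of all genes). By complex, 9 were higher and 13 lower of 37 in complex I, 0 and 4 of 4 in complex II, 3 and 4 of 8 in complex III, 3 and 7 of 19 in complex IV, and 2 and 6 of 17 in complex V.

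Succinate dehydrogenase is also an enzyme of the tricarboxylic acid cycle. Sdha, its flavoprotein, was at 20762, 21694 and 22365 normalised counts in the BEC normal libraries and at 13078, 13279 and 13111 in HEC normal. The groups were far apart, and the difference was larger than the replicate spread (log2 fold change -0.72 ± 0.05, adjusted p = 2.81e-53). Sdhc, a membrane anchor, was at 10144, 11932 and 10726 in BEC normal and 6213, 6298 and 6218 in HEC normal (log2 fold change -0.81 ± 0.08, adjusted p = 1.38e-21), again without overlap. Sdhb, the iron-sulfur subunit, differed by -0.56 ± 0.10 and Sdhd, the other anchor, by -0.30 ± 0.08 on the log2 scale, with adjusted p = 1.93e-08 and 0.00033.

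**Figure D2:**
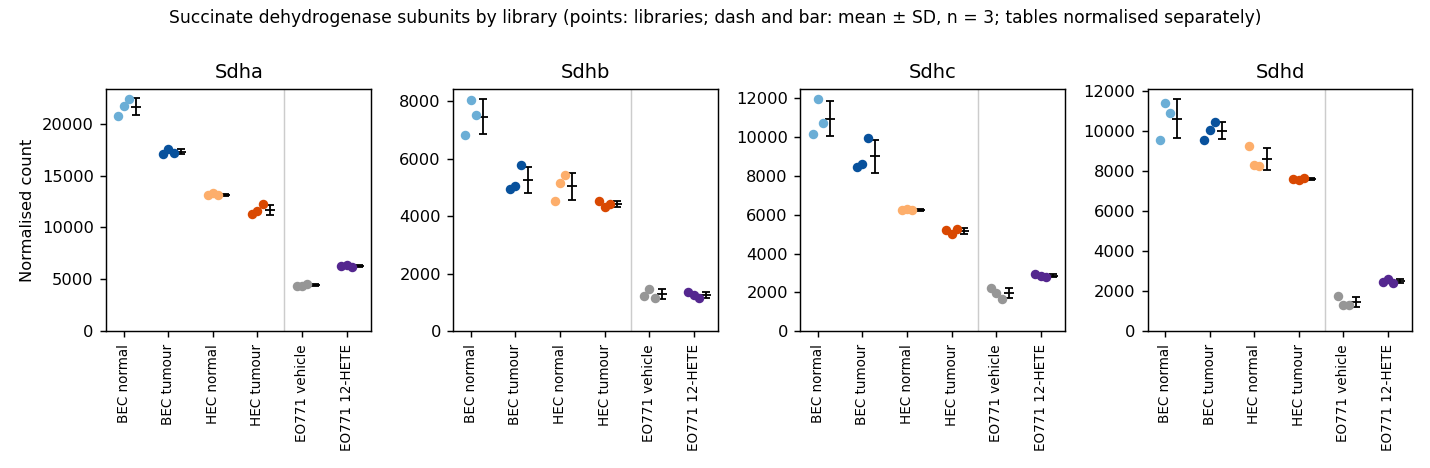
Normalised counts of Sdha, Sdhb, Sdhc and Sdhd in each library. Points are libraries, bars are mean ± SD (n = 3), and the endothelial and EO771 groups were normalised separately. The 4 subunits are higher in BEC normal than in either HEC group, and Sdha, Sdhc and Sdhd, but not Sdhb, are higher with 12-HETE than with vehicle.

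Among complex I genes, Ndufs1, a core subunit that carries iron-sulfur clusters, had the lowest log2 fold change. It was at 9205, 8626 and 8671 in BEC normal and 3139, 3095 and 3310.2 in HEC normal (log2 fold change -1.47 ± 0.06, adjusted p = 3.01e-153). Its exons overlap Eef1b2 and Ino80dos. Ndufa10, an accessory subunit of the membrane arm, had a mean of 8510.0 in BEC normal and 4157 in HEC normal (log2 fold change -1.03 ± 0.08, adjusted p = 4.83e-40). Ndufa5, an accessory subunit of the matrix arm, had the highest value of complex I (log2 fold change 0.88 ± 0.13, adjusted p = 6.25e-11).

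In complex V, subunits of the F1 part differed in opposite directions. Atp5a1 was at 56877, 64018 and 62296 in BEC normal and 34086, 37889 and 34384 in HEC normal (log2 fold change -0.78 ± 0.07, adjusted p = 7.85e-31), and its exons overlap Haus1. Atp5e, the epsilon subunit of the central stalk, was at 4352, 6047 and 4697 against 11286, 12084 and 11712 (log2 fold change 1.22 ± 0.12, adjusted p = 3.92e-24). No library of 1 group reached the range of the other for either gene, and Atp5e was the only member higher by a fold over 2.

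Complexes III and IV likewise held members of both kinds. Uqcrh was at 7209, 8137 and 7173 in BEC normal and 12405, 15165 and 12128 in HEC normal (log2 fold change 0.82 ± 0.10, adjusted p = 1.67e-14), while Uqcrfs1, the Rieske iron-sulfur protein, was lower in HECs (log2 fold change -0.70 ± 0.11, adjusted p = 3.77e-10). Cox8a, a small structural subunit of complex IV, was at 13066, 14934 and 14380.3 against 26666, 28512 and 28570.4 (log2 fold change 0.98 ± 0.07, adjusted p = 1.27e-44). The complex IV members lower by a fold over 2 were both isoforms at low level. Cox4i2, the isoform of subunit 4 known from lung and hypoxic cells, was at 22.9, 64.7 and 49.8 in BEC normal and 0, 3.05 and 0 in HEC normal, and its fitted log2 fold change of -5.51 (adjusted p = 2.42e-05) depends on how near 0 the HEC libraries lie. After division by the step, 35 fragments stood against 1, a ratio of 35.6 with an exact 95% interval from 5.98 to 1444 that covers counting error only. Cox7b2, known from testis, was at 71.4, 68.3 and 62.0 against 10.1, 0 and 7.64 (log2 fold change -3.50, adjusted p = 2.54e-05).

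Markers of other cells differed between these groups too. The 9 pericyte and smooth muscle markers summed to 48570 to 49140 normalised counts in BEC normal, mostly Acta2, with Kcnj8 and Abcc9 at 0, and to 1613 to 1756 in HEC normal, with Kcnj8 and Higd1b at 0. The 5 myeloid markers summed to 7489 to 8753 and to 33020 to 34670, mostly Cd68. The part of these cells in the differences between members was not tested, and in bulk samples fewer cells of a type and less RNA per cell cannot be told apart.

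The same comparison was made in mice with tumours, between HECs of the lymph node and BECs of the tumour. Complex II was again lower in HECs in each of its 4 subunits. Of 85 members, 13 were higher (15.3%) and 29 lower (34.1%), against 25.9% and 28.4% of all genes. Among genes with a mean of at least 1000, 28.2% were higher and 36.5% lower, so the members held no excess of lower genes over these. The median of the members was -0.11, against -0.06 for those abundant genes. It moved to -0.05 without BEC tumour replicate 3 and to -0.28 with that trend subtracted. No member passed with a fold over 2 in either direction, where 11.2% of all genes were higher and 10.7% lower. By complex, 6 were higher and 11 lower in complex I, 0 and 4 in complex II, 0 and 4 in complex III, 3 and 3 in complex IV, and 4 and 7 in complex V.

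Sdhc had the lowest value of complex II (log2 fold change -0.80 ± 0.08, adjusted p = 6.82e-21), from 8445, 8574 and 9937 in BEC tumour to 5197, 4996 and 5266 in HEC tumour, and Sdhb the highest (log2 fold change -0.25 ± 0.10, adjusted p = 0.0198). The groups did not overlap for either subunit. The call for Sdhb was lost without BEC tumour replicate 3 (adjusted p = 0.118), HEC tumour replicate 2 (0.0795) or HEC tumour replicate 3 (0.0625). Atp5l, subunit g of ATP synthase, was lowest in complex V (log2 fold change -0.97 ± 0.13, adjusted p = 8.85e-14) and Atp5e highest (log2 fold change 0.79 ± 0.12, adjusted p = 9.88e-11). The exons of Atp5l overlap Gm30934. In complex I the extremes were Ndufa5 (0.50 ± 0.13) and the processed pseudogene Ndufb4c (-0.83 ± 0.29, adjusted p = 0.0102, and 0.0748 without BEC tumour replicate 3). In complex III they were Uqcr11, a small subunit that was lower in HECs (-0.48 ± 0.13, adjusted p = 0.000651), and Uqcr10, another small subunit, at 0.13 ± 0.12 (adjusted p = 0.363). In complex IV they were Cox6c, a small subunit whose exons overlap Vps13b (0.52 ± 0.16, adjusted p = 0.00276), and Cox4i2 (-1.81 ± 0.96, adjusted p = 0.0983, and 0.000866 without HEC tumour replicate 2). Markers of other cells differed here as well. The myeloid sum was 97470 to 128900 in BEC tumour and 22970 to 24340 in HEC tumour, the pericyte and smooth muscle sum 4205 to 6563 against 686.8 to 850.8, and the skeletal muscle sum 1090 to 1584 against 187.1 to 255.1. Their part in these differences was not tested.

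The next question was what changed in each endothelium with a tumour. In HECs of nodes from mice with tumours, 41 of 85 members fell and 3 rose. The falls were small and shared by every complex, and 13 of the 17 members of ATP synthase were among them. The members with the largest falls included Cox6b2, Cox8a, Ndufs8 and Atp5g1.

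The 41 lower members made up 48.2% of those tested, against 18.5% of all genes, and the 3 higher members 3.53%, against 16.9% of all genes. The median was -0.26 on the log2 scale, a decrease of 16.2%, against -0.04 for genes with a mean of at least 1000, of which 28.8% were lower. Of the 85 members, 75 lay below 0. With a fold over 2 required, 0 were lower (3.21% of all genes) and 2 were higher (4.58% of all genes). In 63 members every HEC tumour library lay below every HEC normal library, as it did for 24.1% of all genes, and the reverse held for 7 members and 24.7% of all genes. A fit of these 2 groups alone called 63 members lower, but the share of all genes called lower in that fit was not counted. Leaving out HEC normal replicate 2, the library with low Chst4, gave 28 lower members, and leaving out HEC tumour replicate 3, the library with low Fut7, also gave 28. The 4 high endothelial markers moved with this comparison, from a sum of 66250 to 90140 in HEC normal to 143200 to 198600 in HEC tumour, with Ccl21a at 0 in both. The pericyte and smooth muscle sum went from 1613 to 1756 to 686.8 to 850.8, with Rgs5, Kcnj8 and Abcc9 at 0 in HEC tumour. The myeloid sum went from 33020 to 34670 to 22970 to 24340, and nearly all of it was Cd68 (means of 33270 and 23320). The part of these markers in the falls was not tested.

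ATP synthase gave the lowest median of a complex in HECs, -0.36. Atp5b was at 101917, 100199 and 99301 normalised counts in HEC normal and 80030.2, 78816 and 79307 in HEC tumour (log2 fold change -0.34 ± 0.06, adjusted p = 4.21e-08). The 3 libraries of each group lay close together and well apart from the other group. Atp5a1 was at 34086, 37889 and 34384 against 27791, 27280.3 and 27093 (log2 fold change -0.37 ± 0.07, adjusted p = 2.73e-07), and Atp5e at 11286, 12084 and 11712 against 8279, 8338 and 8199.6 (log2 fold change -0.50 ± 0.12, adjusted p = 0.000134), both without overlap. Atp5g1, which encodes the subunit of the rotating c-ring, was lowest of the complex (log2 fold change -0.50 ± 0.12, adjusted p = 0.000291). Atp5f1, subunit b of the stator, was highest, at 0.10 ± 0.09 (adjusted p = 0.388), and its exons overlap Wdr77 and Gm42890.

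Complex II fell in Sdha (log2 fold change -0.17 ± 0.05, adjusted p = 0.00132) and Sdhc (log2 fold change -0.28 ± 0.08, adjusted p = 0.00383), while Sdhb and Sdhd, at -0.19 ± 0.10 and -0.18 ± 0.08, had adjusted p of 0.118 and 0.0601. In Sdha the HEC normal libraries were at 13078, 13279 and 13111 and the HEC tumour libraries at 11273, 11619.7 and 12219. They did not overlap. In complex I the median was -0.23, and 16 of 37 members fell. Ndufs8, a core subunit with iron-sulfur clusters, was lowest, with 3505, 4345 and 4690.1 in HEC normal and 3466, 2585 and 2513 in HEC tumour (log2 fold change -0.55 ± 0.15, adjusted p = 0.00127). Its lowest HEC normal library was only a little above its highest HEC tumour library. Ndufs1 was the 1 complex I member that rose, from 3139, 3095 and 3310.2 to 3676, 3674 and 3947 (log2 fold change 0.24 ± 0.06, adjusted p = 0.000113).

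In complex III, 4 of 8 members fell. Uqcr11 was lowest (log2 fold change -0.43 ± 0.13, adjusted p = 0.00421) and Uqcrfs1 highest, at -0.15 ± 0.11 with an adjusted p of 0.316. In complex IV, 6 of 19 fell and 2 rose. Cox8a was at 26666, 28512 and 28570.4 in HEC normal and 18679, 19237 and 18697 in HEC tumour (log2 fold change -0.56 ± 0.07, adjusted p = 7.98e-15), with a wide gap between the groups. The testis isoform Cox6b2 was lowest, at 127, 144 and 147 against 62.3, 78.0 and 68.6 (log2 fold change -0.997 ± 0.31, adjusted p = 0.00472). The 2 members that rose were minor isoforms at low level. Cox4i2 was at 0, 3.05 and 0 in HEC normal and 3.46, 28.6 and 4.43 in HEC tumour (adjusted p = 0.0147), most of it in HEC tumour replicate 2, without which the adjusted p was 0.241, and the call was also lost without HEC normal replicate 1 (0.0618) or 3 (0.0655). Cox7a1, known from heart and skeletal muscle, was at 12.2, 17.3 and 17.2 against 20.8, 39.5 and 41.0 (log2 fold change 1.12 ± 0.47, adjusted p = 0.0465), and this call was lost in most alternatives, among them edgeR (adjusted p = 0.0735) and the fits without any of HEC normal replicates 1, 2 and 3 or HEC tumour replicates 2 and 3 (adjusted p from 0.0805 to 0.176).

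BECs of the tumour were compared with BECs of the fat pad. Here 44 of 85 members fell and 8 rose. Cox5b, Ndufa8, Ndufb3 and Ndufa10 had the largest falls after the minor isoform Cox7b2, while Uqcrh, Uqcrc2, Ndufs5, Ndufb10 and Cox8a rose. Complexes I, III and IV thus held members moving in opposite directions, and complex V held 9 that fell and 0 that rose.

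The lower members made up 51.8% of those tested, against 27.2% of all genes, and the higher members 9.41%, against 26.5% of all genes. The median was -0.28, a decrease of 17.8%, against -0.03 for genes with a mean of at least 1000, of which 33.9% were lower. Of the 85, 68 lay below 0, and in 39 every BEC tumour library lay below every BEC normal library, against 30.4% of all genes. With a fold over 2 required, 1 was higher (12.4% of all genes) and 1 lower (10.8% of all genes). Without BEC tumour replicate 3, in which Krt8 of the epithelial list reached 2235, 47 were lower and 5 higher, and without BEC normal replicate 3, 40 were lower and 5 higher.

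Markers of other cells moved strongly with this comparison. The 5 myeloid markers, all detected, summed to 7489 to 8753 in BEC normal and to 97470 to 128900 in BEC tumour, where Cd68 and Lyz2 led. The 9 pericyte and smooth muscle markers summed to 48570 to 49140 and to 4205 to 6563, with Kcnj8 and Abcc9 at 0 in the former and Higd1b in the latter. The 6 skeletal muscle markers summed to 85.5 to 195.0 in BEC normal, with Myh4, Tnnt3 and Tnnc2 at 0, and to 1090 to 1584 in BEC tumour. The 5 epithelial markers summed to 103.2 to 205.2 and to 386.8 to 4992, the 6 adipocyte markers to at most 8.82 and to 93.9 to 132.6, and the 4 T and B cell markers to at most 16.8 and to 105.7 to 144.7. Their part in the changes of the members was not tested. In HECs the myeloid sum, nearly all of it Cd68, moved the other way, from 33020 to 34670 without tumour to 22970 to 24340 with it.

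**Figure D3:**
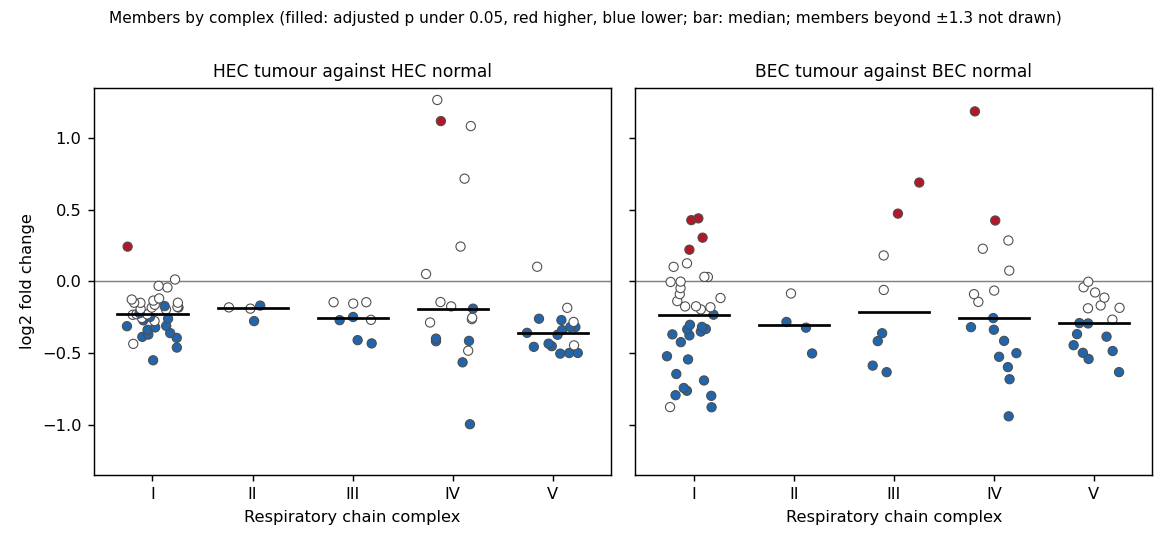
Log2 fold change of each member with tumour, by complex, in HECs (left) and BECs (right). Filled points have an adjusted p under 0.05 (red higher, blue lower), black bars are medians, and members beyond ±1.3, which are minor isoforms, are not drawn. The median of every complex lies below 0 in both, with a narrower spread in HECs, and the BEC panel holds members well above 0 in complexes I, III and IV.

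Ndufa8, an accessory subunit of complex I, had the lowest value of that complex in BECs. It was at 12229, 13877 and 13327 in BEC normal and 6954, 6852 and 7638 in BEC tumour (log2 fold change -0.88 ± 0.07, adjusted p = 1.16e-35). Ndufs1 was at 9205, 8626 and 8671 against 5606, 5403 and 5404 (log2 fold change -0.69 ± 0.05, adjusted p = 1.77e-35). In both genes the highest tumour library was far below the lowest normal library. Ndufs5, an accessory subunit of the membrane arm, was highest in complex I, at 1869, 2281 and 2279.6 against 2834, 2661 and 3224 (log2 fold change 0.44 ± 0.11, adjusted p = 0.000255).

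In complex II, Sdhb was lowest, at 6809.7, 8028 and 7530.4 against 4959.8, 5058 and 5765 (log2 fold change -0.50 ± 0.10, adjusted p = 7.87e-07), Sdha fell by 0.32 and Sdhc by 0.28 on the log2 scale, and Sdhd, at -0.08 ± 0.08 with overlapping groups, did not pass (adjusted p = 0.384). In complex III the Rieske protein Uqcrfs1 fell (log2 fold change -0.63 ± 0.11, adjusted p = 1.83e-08). Uqcrh rose from 7209, 8137 and 7173 to 11955, 11284 and 13098 (log2 fold change 0.69 ± 0.10, adjusted p = 1.71e-10), and Uqcrc2, a core protein whose exons overlap Pdzd9, rose from 11725, 13114 and 14144 to 17278, 17502 and 19338 (log2 fold change 0.47 ± 0.08, adjusted p = 3.62e-08). The normal and tumour libraries did not overlap for either.

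In complex IV, Cox5b, a subunit that binds zinc, was at 7893, 9567 and 9249 in BEC normal and 4367, 4434 and 5102 in BEC tumour (log2 fold change -0.94 ± 0.13, adjusted p = 3.45e-12), a clear separation. Cox8a was at 13066, 14934 and 14380.3 against 17818, 18835 and 20248 (log2 fold change 0.43 ± 0.07, adjusted p = 4.26e-09). The extremes of fold were minor isoforms. Cox7b2 was at 71.4, 68.3 and 62.0 against 24.1, 33.0 and 7.85 (log2 fold change -1.63 ± 0.73, adjusted p = 0.0485), and leaving out any BEC normal library or BEC tumour replicate 1 or 3 ended the call (adjusted p from 0.102 to 0.141). Cox6a2, known from heart and skeletal muscle, was at 45.9, 12.9 and 51.8 against 68.6, 118 and 67.1 (log2 fold change 1.19 ± 0.50, adjusted p = 0.034), a call lost without BEC normal replicate 2 (0.12) or BEC tumour replicate 2 (0.19), and its exons overlap Itgad. Ndufa4l2, a paralogue of Ndufa4 known from hypoxic cells, had the highest value, 1.32 ± 0.66 (adjusted p = 0.0771), at 21.2, 31.8 and 4.06 against 39.0, 54.1 and 48.8. Its adjusted p was 0.0212 without BEC normal replicate 2 and 0.0366 with TMM size factors.

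In complex V, Atp5b and Atp5a1 fell, with log2 fold changes of -0.29 ± 0.06 and -0.49 ± 0.07. Atp5a1 was at 56877, 64018 and 62296 in BEC normal and 41513, 43458 and 45828 in BEC tumour, without overlap. The lowest value was that of Atp5j, coupling factor 6, whose groups overlapped (log2 fold change -0.63 ± 0.27, adjusted p = 0.0335). Its exons overlap Gabpa, and its call was lost without BEC normal replicate 2 (0.125) or 3 (0.207), or without BEC tumour replicate 2 (0.182). Atp5s, factor B, was highest, at a log2 fold change of -0.0022 (adjusted p = 0.996).

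The HEC and BEC comparisons share no library, though they share the estimate of spread of 1 fit. In both, 23 of the 85 members fell (27.1%), against 1232 of all 18511 genes (6.66%). The 23 are 56.1% of the members that fell in HECs and 52.3% of those that fell in BECs, where the shares over all genes are 36.0% and 24.5%. They were 8 of complex I, 2 of complex II (Sdha and Sdhc), 2 of complex III, 4 of complex IV and 7 of complex V. A further 14 fell in HECs and had no call in BECs, 20 fell in BECs and had no call in HECs, 4 fell in HECs and rose in BECs, 1 did the reverse, and 0 rose in both. The shares of all genes with these further patterns were not counted, so whether the members differ from other genes in them is not known.

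Whether HECs and BECs differed in their tumour change was tested by the interaction, the log2 fold change in HECs less that in BECs. It was past the test for 24 members, 14 above 0 (22.9% of all genes) and 10 below 0 (23.8% of all genes), with a median of -0.02. With the TMM size factors of edgeR the split was 11 above and 16 below 0. With a fold over 2 required, 2 were above (11.2% of all genes) and 1 below (12.1% of all genes). The members past the test came from all 5 complexes.

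The members below 0, which were higher with tumour in BECs relative to HECs, were led by Uqcrh (interaction -1.10 ± 0.15, adjusted p = 6.28e-13). In HECs it went from 12405, 15165 and 12128 to 10589, 9570.1 and 9718, a fall, and in BECs it rose, as given above. The distance between the endothelia was smaller with tumour, since BEC tumour and HEC tumour stood at means of 12112 and 9959 where BEC normal and HEC normal had stood at 7506 and 13233. Cox8a also fell in HECs and rose in BECs (-0.99 ± 0.10, adjusted p = 8.28e-23), as did Ndufb10 (-0.80 ± 0.22, 0.000789) and Ndufc2 (-0.67 ± 0.18, 0.000624). The latter pair are accessory subunits of the membrane arm of complex I. Between HEC tumour and BEC tumour, Cox8a and Ndufc2 lay close together (log2 fold change -0.0073 and -0.0004), while Ndufb10 was lower in HECs (-0.37). The separate changes of Ndufb10 and Ndufc2 in HECs and in BECs were nearer to the threshold than their interaction. In HECs both calls were lost without HEC normal replicate 2 or HEC tumour replicate 3, that of Ndufb10 also without HEC tumour replicate 2 and that of Ndufc2 also without HEC tumour replicate 1 (adjusted p from 0.0512 to 0.28). In BECs both were lost without BEC normal or BEC tumour replicate 3, and that of Ndufc2 also without BEC normal replicate 1 (0.0805 to 0.155). Atp5e was lowest in complex V (-0.42 ± 0.17, adjusted p = 0.0262), a call that ended without BEC normal replicate 1 or 3, BEC tumour replicate 3, HEC normal replicate 2 or 3, or HEC tumour replicate 1 or 3 (adjusted p from 0.0516 to 0.0863).

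The members above 0 were led, among abundant ones, by Cox5b (0.99 ± 0.18, adjusted p = 4.14e-07), Ndufs1 (0.93 ± 0.08, 3.95e-31) and Cox4i1, the main isoform of subunit 4, whose exons overlap Emc8 (0.93 ± 0.22, 8.5e-05). Cox4i1 was at 14319, 17628 and 20083 in BEC normal and 9818, 10389 and 12206 in BEC tumour, and at 12763, 11970.4 and 11597 in HEC normal and 12971, 12528 and 17504 in HEC tumour. The BEC groups were apart and the HEC groups overlapped. Uqcrfs1 was highest in complex III (0.49 ± 0.15, 0.00387) and Atp5f1 in complex V (0.47 ± 0.12, 0.000405). In complex II, Sdhb (0.31 ± 0.14, 0.0478) and Sdha (0.15 ± 0.07, 0.0395) were just past the test and lost it in most alternatives, edgeR among them (0.124 and 0.248), and Sdhd was at -0.10 ± 0.11 (0.506). Sdhb lost it without any library but BEC normal replicate 1, BEC tumour replicate 3 or HEC normal replicate 3 (0.0725 to 0.135), and Sdha without any but BEC normal replicate 1 or HEC tumour replicate 1 (0.0527 to 0.131). The isoforms Cox4i2 and Cox7b2 were also past it (0.0405 and 0.0311), with edgeR at 0.0819 and 0.0906. Cox4i2 lost the call without BEC normal replicate 2 or 3, BEC tumour replicate 1 or 2, HEC normal replicate 1 or 3, or HEC tumour replicate 2 (0.0799 to 0.248), and Cox7b2 without any BEC normal or HEC tumour library or BEC tumour replicate 1 (0.0575 to 0.079).

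**Figure D4:**
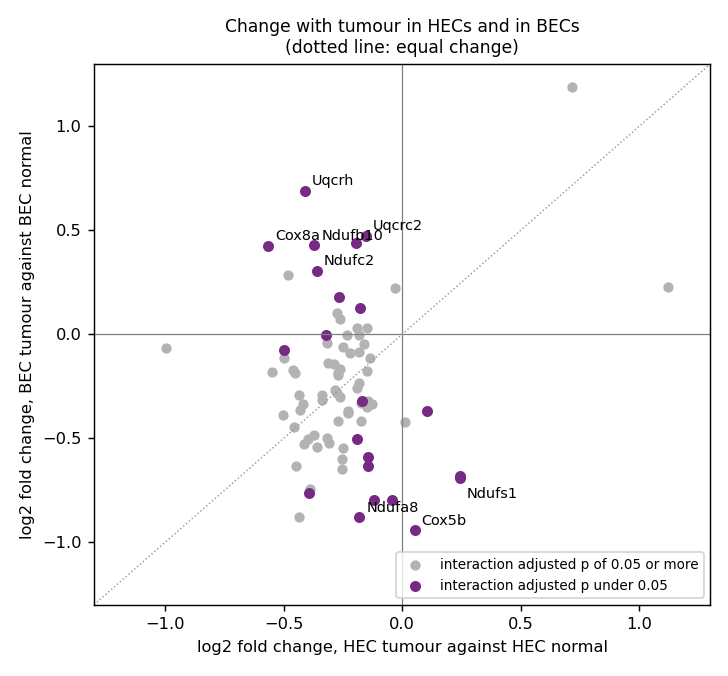
Log2 fold change with tumour in BECs (vertical) against that in HECs (horizontal), 1 point per member, without members beyond ±1.3. Purple points are past the interaction test, and the dotted line marks equal change. Uqcrh, Cox8a, Ndufb10 and Ndufc2 lie upper left, lower in HECs and higher in BECs, and Ndufs1 lies lower right.

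The 3 genes for the c-ring of ATP synthase encode the same mature protein, so their balance does not alter the subunit. By level per kilobase, Atp5g3 made up 38.4, 34.6 and 34.1% of the family in the BEC normal libraries and 37.4, 37.4 and 38.4% in BEC tumour. In HECs it made up 48.4, 49.9 and 48.8% without tumour and 52.5, 52.0 and 52.3% with tumour. HEC libraries thus lay above every BEC library, with a difference of 13.3 percentage points without and 14.5 with tumour (exact permutation p = 0.1 for each, the smallest that 3 against 3 allows). Atp5g2 was the largest part in BECs (53.4% and 52.3%) and lower in HECs (43.2% and 40.7%), and Atp5g1 was the smallest in each group (7.08 to 10.9%). These shares depend on the gene lengths used, and on plain normalised counts Atp5g1 made up 24.2% in BEC normal.

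The family of Cox7a2 and Cox7a2l, of which the latter encodes a factor known to join complexes III and IV, varied between replicates. Cox7a2l made up 38.0 to 55.6% of it per kilobase, and in BEC normal, HEC normal and HEC tumour replicate 3 stood lowest, at 38.0, 39.2 and 42.6%, against 49.7 to 55.6% in the other libraries of those groups. BEC tumour replicate 3 was at 51.9%, and BEC tumour lay above BEC normal in each library, by 7.10 percentage points on average (exact permutation p = 0.1). What sets those libraries apart was not tested.

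Whether 12-HETE changes these transcripts in tumour cells was asked in EO771 cells. With 12-HETE, 36 of 76 members tested rose and 1 fell. Uqcrh and Cox7b rose most, followed by Atp5k, Uqcrb, Ndufb3, Cox7a2 and Cox6b1, and 3 of the 4 Sdh subunits rose. The 1 member that fell was Uqcrq, a small subunit of complex III.

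The 36 made up 47.4% of the members, against 22.7% of all 11602 genes tested, and the 1 lower member 1.32%, against 24.2% of all genes. With replicate number as a block, 32 rose and 2 fell, with a median of 0.22. The median log2 fold change was 0.21, an increase of 16.0%, against 0.05 for genes with a mean of at least 1000, of which 29.0% were higher. Of the 76, 62 lay above 0. In 48 members every 12-HETE library lay above every vehicle library, as it did for 30.2% of all genes, and the reverse held for 1 member and 30.5% of all genes. With a fold over 2 required, 2 were higher (2.38% of all genes) and 0 lower (7.79% of all genes). Leaving out the members with overlapping exons raised the median to 0.30.

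By complex, 16 of 35 rose in complex I (median 0.21), 3 of 4 in complex II (0.53), 4 of 8 in complex III (0.22), 4 of 13 in complex IV (0.13) and 9 of 16 in complex V (0.32). The sum of complex II went from 9600, 9149 and 8745 normalised counts in vehicle to 13101, 13133 and 12557 with 12-HETE, a ratio of 1.41. The other complexes had ratios from 1.15 to 1.17. No vehicle library overlapped a 12-HETE library in the sum of any complex (exact permutation p = 0.1 for each).

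**Figure D5:**
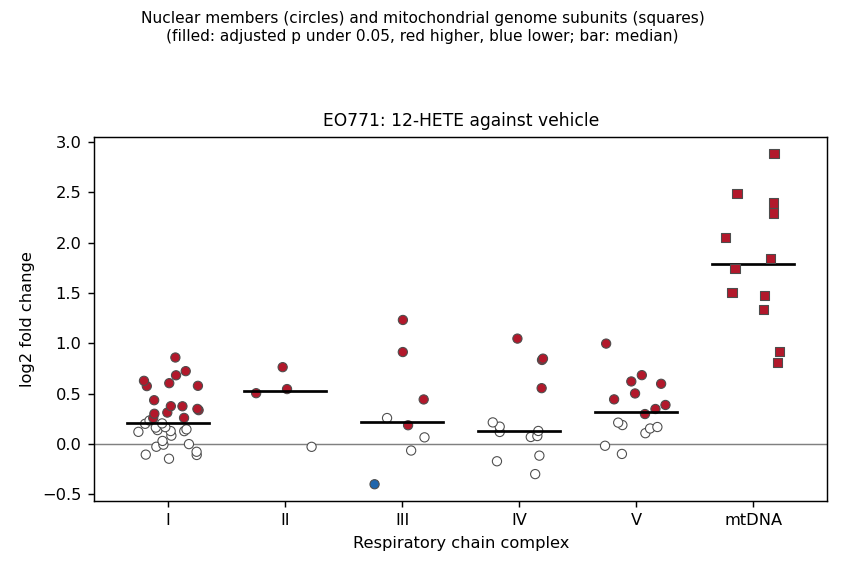
Log2 fold change with 12-HETE in EO771 cells for each nuclear member by complex (circles) and for subunits encoded by mitochondrial DNA (squares). Filled points have an adjusted p under 0.05 (red higher, blue lower) and bars are medians. The medians of the 5 complexes lie between 0.13 and 0.53 and that of the mitochondrial subunits at 1.79, and 1 nuclear member is blue.

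Uqcrh was at 1392, 1286 and 1153 normalised counts with vehicle and 2969.9, 3137 and 2892 with 12-HETE (log2 fold change 1.23 ± 0.11, adjusted p = 6.12e-30). Uqcrb, the ubiquinone-binding subunit of the same complex, was at 848, 818 and 911 against 1542, 1624 and 1687 (log2 fold change 0.91 ± 0.10, adjusted p = 3.15e-19). Both sets of libraries were far apart. Uqcrq was at 3274, 4198 and 3164 against 2522, 2812 and 2737 (log2 fold change -0.40 ± 0.13, adjusted p = 0.00806), with vehicle replicate 2 well above the rest, and its adjusted p was 0.083 without 12-HETE replicate 1.

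Sdha was at 4392, 4365 and 4575 with vehicle and 6321, 6396 and 6205 with 12-HETE (log2 fold change 0.51 ± 0.07, adjusted p = 2.82e-11). Sdhc was at 2209, 1983 and 1677 against 2947, 2850.3 and 2772 (log2 fold change 0.55 ± 0.12, adjusted p = 4.26e-05), and Sdhd at 1763, 1315 and 1329.8 against 2469.8, 2606 and 2408 (log2 fold change 0.76 ± 0.14, adjusted p = 2.52e-07). These 3 were without overlap. Sdhb was at 1236, 1486 and 1164 against 1363, 1280.3 and 1172, with overlap (log2 fold change -0.03 ± 0.13, adjusted p = 0.882).

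In complex IV, Cox7b was at 1113, 985 and 1194 with vehicle and 2122, 2366 and 2313 with 12-HETE (log2 fold change 1.05 ± 0.11, adjusted p = 1.33e-19), and Ndufa4 at 3584, 3097 and 3294 against 4758, 5082 and 4817 (log2 fold change 0.56 ± 0.09, adjusted p = 2.32e-08). Cox6b1, an intermembrane space subunit, rose as well (log2 fold change 0.83 ± 0.12, adjusted p = 1.33e-11). Cox7a2 was at 1121, 922 and 1029.8 against 1802, 1891 and 1838 (log2 fold change 0.85 ± 0.11, adjusted p = 4.68e-14), while Cox7a2l was at 2378, 2728 and 1996 against 1917, 2021 and 1840.3 (log2 fold change -0.30 ± 0.13, adjusted p = 0.0531). The first was apart and the second overlapped. With the block Cox7a2l passed (adjusted p = 0.0413), and it also passed without vehicle replicate 3 (log2 fold change -0.41, adjusted p = 0.000246). Within the family, Cox7a2 made up 41.7, 34.2 and 44.0% per kilobase with vehicle and 58.6, 58.8 and 60.4% with 12-HETE, a difference of 19.3 percentage points (exact permutation p = 0.1). On plain normalised counts the means were 30.2% and 48.7%. The muscle isoform Cox6a2, too low to be tested, was at 7.92, 23.9 and 13.3 with vehicle and at 0 in each 12-HETE library. Its vehicle mean of 15.0 was 5.01 times a floor of 3 counts per library. That ratio leaves out the spread of the vehicle libraries, so it is not a lower limit.

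In complex I, Ndufb3, an accessory subunit, was highest (log2 fold change 0.86 ± 0.10, adjusted p = 1.67e-15) and Ndufb2 lowest, at -0.14 ± 0.23 (adjusted p = 0.625), with exons that overlap Braf and other genes. Ndufs1 was at 1454, 1654 and 1738 against 2463, 2502 and 2524 (log2 fold change 0.63 ± 0.10, adjusted p = 5.26e-09), and Ndufb10 at 783, 831 and 782 against 1256, 1316 and 1275 (log2 fold change 0.68 ± 0.09, adjusted p = 1.97e-12). Neither had overlapping groups. In complex V, Atp5k, subunit e, was highest, at 547, 490.2 and 532 against 996, 1137 and 999.8 (log2 fold change 1.00 ± 0.11, adjusted p = 7.53e-17), and Atp5s lowest, at -0.10 ± 0.22 (adjusted p = 0.74).

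The most abundant members stood nearer to 0. Atp5b was at 44664, 40177 and 36724 with vehicle and 44463, 44204 and 42379 with 12-HETE, and its difference did not pass (log2 fold change 0.11 ± 0.10, adjusted p = 0.377). Atp5a1 had 0.15 ± 0.08 (adjusted p = 0.117), Cox4i1 -0.17 ± 0.12 (0.223) and Cox6a1 0.12 ± 0.09 (0.24). Atp5g3 was the exception among the 5, at 5391, 5009 and 4641 against 7575, 7959.6 and 7612 (log2 fold change 0.62 ± 0.09, adjusted p = 1.07e-10), and its share of the c-ring family per kilobase went from 46.5% to 55.8% while that of Atp5g2 went from 43.3% to 33.4% (exact permutation p = 0.1 for each). Epithelial markers also moved with 12-HETE, the 5 of them summing to 50730 to 66980 normalised counts with vehicle and 35250 to 36140 with 12-HETE, none at 0. The 9 pericyte and smooth muscle markers summed to 37.6 to 86.0 and 20.7 to 25.7, and the 6 skeletal muscle markers to 14.8 to 37.3 and 39.0 to 41.4, with 1 and 3 genes at 0 in each group. The part of these markers in the changes was not tested.

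The other genes of the pathway were described from lists. Of the 13 subunits encoded by mitochondrial DNA, all 12 that were tested rose in EO771 cells with 12-HETE, with a median log2 fold change of 1.79, and their sum went from 134376 ± 8764 to 421874 ± 23051 normalised counts (SD, n = 3 each). In the endothelial groups 12 of the 13 had an adjusted p, and the fit gave none for mt-Atp6, whose libraries spread widely in 3 of the 4 groups. In HECs with tumour 10 of the 12 rose and 0 fell (median 0.87), where 41 of the 85 nuclear members fell. In BECs with tumour 1 rose and 6 fell (median -0.37). Between HECs and BECs 3 were higher and 9 lower in HECs without tumour (median -1.32), and 6 were higher and 2 lower with tumour (median 0.19). The interaction was past the test for 9 of the 12, all above 0. The medians are over all 13. Of all genes, 22.7% rose and 24.2% fell with 12-HETE. With tumour, 16.9% of all genes rose and 18.5% fell in HECs, and 26.5% rose and 27.2% fell in BECs. Between HECs and BECs, 31.4% were higher and 31.9% lower without tumour, and 25.9% and 28.4% with tumour. The interaction was past the test above 0 for 22.9% of all genes and below 0 for 23.8%. Summed normalised counts of the 13 were 1751520 ± 233066 (BEC normal) and 1492180 ± 117457 (BEC tumour), which overlapped, and 1426030 ± 62943 (HEC normal) and 1826350 ± 75727 (HEC tumour), which did not. The ratio was 0.814 for HEC normal to BEC normal, 1.22 for HEC tumour to BEC tumour, 1.28 for HEC tumour to HEC normal and 0.852 for BEC tumour to BEC normal.

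Assembly factors, which build the complexes without remaining in them, had calls in both directions. Of the 49 tested, 10 rose and 7 fell in HECs with tumour (median 0.03), where 16.9% of all genes rose and 18.5% fell. In BECs with tumour 7 rose and 13 fell (median -0.02), where 26.5% of all genes rose and 27.2% fell. With 12-HETE 8 of 47 rose and 6 fell (median 0.08), where 22.7% of all genes rose and 24.2% fell. Between HECs and BECs 15 were higher and 15 lower without tumour, where 31.4% and 31.9% of all genes were, and 17 and 13 with tumour, where 25.9% and 28.4% were.

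Of 12 regulators of mitochondrial gene expression, 3 rose and 4 fell in HECs with tumour, 3 rose and 2 fell in BECs with tumour, and 3 rose and 2 fell with 12-HETE, where the shares of all genes are those given for the assembly factors. Ppargc1a, a coactivator known to raise mitochondrial genes, was lower with tumour in HECs (log2 fold change -1.50 ± 0.35, adjusted p = 9.08e-05) and higher in BECs (1.82 ± 0.39, adjusted p = 9.23e-06), at means of 149.9 and 53.0 normalised counts in HEC normal and HEC tumour and 18.3 and 64.0 in BEC normal and BEC tumour. Ppargc1b, its relative, had -1.03 ± 0.19 and 1.51 ± 0.19 (adjusted p = 5.74e-07 and 1.3e-14). Both had an interaction past the test (-3.32 ± 0.52 and -2.54 ± 0.27). Tfb2m, a factor for transcription of mitochondrial DNA, was higher with tumour in HECs (1.12 ± 0.12), lower in BECs (-0.44 ± 0.12) and higher with 12-HETE (0.62 ± 0.13), each past the test. Nrf1, whose motif is shown above, had 0.04 ± 0.10, -0.15 ± 0.10 and 0.09 ± 0.10 in the same 3 comparisons, with adjusted p from 0.195 to 0.794. Of the 3 subunits that the rule did not match, Cyc1, Ndufab1 and Cycs, 0 changed in HECs with tumour, 1 rose and 2 fell in BECs with tumour, and 2 rose with 12-HETE. The shares of all genes are again those given for the assembly factors.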

How the data were processed

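Total RNA of 18 libraries was sequenced, 12 endothelial and 6 of EO771 cells. The authors aligned reads with STAR and counted them with featureCounts on GRCm38, the build per the labels. For EO771 RNA the methods name a directional kit and the removal of duplicates with prinseq before alignment. Whether counting used strand is not given in the sources used here, and methods and labels name different library kits. In endothelium the deposited values were treated as estimated counts, since their low whole numbers are spaced by about 3.74, and the deposited EO771 values as counts. Groups followed the titles in the labels.

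Rows with a mean of at least 10 were fitted with DESeq2 1.42.0 in R 4.3.3, with 1 fit per table, group as the only term, the Wald test (two-sided) and a threshold of 0.05 after Benjamini-Hochberg adjustment. The study's added rule of a fold over 2 was an alternative. Others were edgeR 4.0.16, TMM size factors, size factors without members and mitochondrial genes, no filter, a mean of at least 50, only the 2 groups compared, values divided by the step, a trend with length and GC content subtracted, a replicate block, each library left out, and members with overlapping exons left out. A run without processed pseudogenes was added after seeing the data. The scripts were tested on simulated data. Sums, shares and exact tests were computed in Python 3.11.15 with scipy 1.17.1. Intervals and floors (3 counts) cover counting error alone, as reads lack molecular identifiers and need not be independent.

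Members, lists and tests were chosen with earlier results of these data known. Named members were those past the test with a fold over 2 (at most 8 per direction), the highest and lowest of each complex in each comparison, the Sdh subunits and isoform families, the 5 highest and 3 lowest by mean and the 3 highest per kilobase. Others, chosen after their values were seen, are Ndufb10, Ndufc2, Uqcrc2, Cox5b, Ndufb3 (in BECs), Uqcrb, Cox6b1 (with 12-HETE), Atp5b and Atp5a1 (with tumour) and the repeats of a member in another comparison. The lists of other pathway genes were planned for counts and medians only. The regulators Ppargc1a, Ppargc1b, Tfb2m and Nrf1 were therefore also named outside the rule, after their values were seen.

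Same-numbered vehicle and 12-HETE libraries deviated together from their group means (r = 0.111, 0.173 and 0.328). The EO771 numbers may thus pair cultures, but the labels do not say so and no pairing was assumed in the main results. The main EO771 fit and the exact tests do not use such a pairing, and the block, run as an alternative, does. No DNA sequence was read from a sample, and sequences are from the RefSeq tables.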

Additional observations from a re-analysis of the deposited data

Results flagged for a closer look

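Members were picked out here because they passed the test of the tumour change in both HECs and BECs with opposite sign, and the interaction, the log2 fold change in HECs less that in BECs, passed as well. The share of all genes that meet this rule was not counted, so their number is not a result about the members as a set. Uqcrh, the hinge subunit of complex III, had an interaction of -1.10 (HECs -0.41, BECs 0.69, adjusted p = 6.28e-13). Cox8a, a small subunit of complex IV, had -0.99 (HECs -0.56, BECs 0.43, adjusted p = 8.28e-23). Ndufb10 and Ndufc2, accessory subunits of complex I, had -0.80 (-0.37 and 0.43, adjusted p = 0.000789) and -0.67 (-0.36 and 0.31, adjusted p = 0.000624). Ndufs1, a core subunit of complex I, had 0.93 (0.24 and -0.69, adjusted p = 3.95e-31), and its exons overlap Eef1b2 and Ino80dos. The interaction of each of these 5 members kept its direction and stayed past the test in all 19 alternatives run for it. The separate calls held in all 14 alternatives for Uqcrh, Cox8a and Ndufs1 in both endothelia, and in fewer for the other pair. The fall of Ndufb10 in HECs (adjusted p = 0.0449) held in 8 of 14, and was lost with edgeR (0.0609), the replicate block (0.0721), values divided by the step (0.0526) and without HEC normal replicate 2 (0.28), HEC tumour replicate 2 (0.177) or HEC tumour replicate 3 (0.107). Its rise in BECs (0.0116) held in 12 of 14, and was lost without BEC normal replicate 3 (0.081) or BEC tumour replicate 3 (0.0805). The fall of Ndufc2 in HECs (0.0144) held in 11 of 14, and was lost without HEC normal replicate 2 (0.0671), HEC tumour replicate 1 (0.0707) or HEC tumour replicate 3 (0.0512). Its rise in BECs (0.0301) held in 10 of 14, and was lost with only the 2 groups fitted (0.0568) and without BEC normal replicate 1 (0.155), BEC normal replicate 3 (0.115) or BEC tumour replicate 3 (0.152). In BECs the groups of Ndufb10 and Ndufc2 overlapped, and the myeloid, pericyte and other markers that moved between BEC normal and BEC tumour are given with that comparison, where their part was not tested.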

How the results depend on the processing

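No value past the test reversed. With 12-HETE, Ndufb2 (-0.145) and Sdhb (-0.03), which had not passed, moved to 0.02 and 0.08 without vehicle replicate 2, and Atp5s (-0.10) to 0.05 without 12-HETE replicate 1. Of the counts and medians 276 of 315 alternatives stayed within 1.5 times the main count or the replicate spread. A fold over 2 left 1 higher and 4 lower members in HEC normal against BEC normal, 0 and 0 in HEC tumour against BEC tumour, 0 lower in HECs with tumour, 1 and 1 in BECs with tumour, 2 and 1 in the interaction, and 2 and 0 with 12-HETE. Without members whose exons overlap another gene, 21 were lower in HEC normal against BEC normal, 8 higher and 18 lower in HEC tumour against BEC tumour, 26 lower in HECs and 25 in BECs with tumour, and 9 above 0 in the interaction, since fewer members were counted, and the median with 12-HETE was 0.30. Subtracting a trend with length and GC content moved the median to -0.28 in HEC tumour against BEC tumour and -0.32 in HECs with tumour, and to -0.24 in HEC normal against BEC normal. In HECs with tumour, 63 were lower with only the 2 groups fitted, and 1 was higher at a mean of at least 50 or with values divided by the step. Shares of all genes were not counted for the alternative fits. In the interaction, edgeR left 9 above 0 and TMM size factors gave 16 below 0. With 12-HETE, TMM size factors, no filter, a mean of at least 50 and the replicate block each gave 2 lower.

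With 1 library left out, higher members ranged from 16 to 21, lower from 31 to 38 and the median from -0.20 to -0.04 in HEC normal against BEC normal. In HEC tumour against BEC tumour they ranged from 9 to 17, 20 to 30 and -0.17 to -0.05. In HECs with tumour they ranged from 1 to 3, 28 to 38 and -0.28 to -0.22, with 1 higher without HEC normal replicate 1 or 3 or HEC tumour replicate 2. In BECs with tumour they ranged from 5 to 9, 36 to 47 and -0.35 to -0.22, with 5 higher without BEC normal or BEC tumour replicate 3. The interaction ranged from 9 to 18 above 0, 7 to 15 below 0 and -0.08 to 0.06, with 9 above without BEC normal replicate 2, BEC tumour replicate 1 or HEC tumour replicate 2. With 12-HETE the ranges were 25 to 43, 0 to 3 and 0.18 to 0.25, with 0 lower without 12-HETE replicate 1 and 3 without vehicle replicate 3. The causes were not tested.

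Same-numbered endothelial libraries had r from -0.03 to 0.13, most of them above 0, and differently numbered ones from -0.17 to 0.12. Whether these numbers pair the libraries was not tested, and the labels do not say. In the order above, a fit with the replicate block gave 18 higher and 34 lower, 14 and 31, 2 and 41, and 7 and 43. Its interaction gave 14 above and 10 below 0. With 12-HETE the block gave 32 higher and 2 lower and a median of 0.22. On plain normalised counts 24 of 48 shares of isoforms moved by more than the replicate spread. Among single named members, 108 alternatives lost a call and 31 gained one.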
